A study of Rattus norvegicus with 12 samples.

Results

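The genes described here are 49 genes of the cell cycle and of DNA replication, chosen by gene symbol, and all 49 were found among the 18469 genes of the deposited counts table. They divide into 20 G1/S members, whose products start and carry out DNA synthesis, and 29 G2/M members, whose products drive mitosis and cell division. RNA was sequenced from neonatal rat ventricular myocytes (NRVMs), heart muscle cells taken from newborn Sprague-Dawley rats and grown in DMEM with insulin, transferrin and selenium. The 12 libraries form 4 groups of 3, which the labels describe as independent biological replicates. The siNeg group received a control siRNA and the siSlc25a26 group an siRNA named for Slc25a26, which encodes the mitochondrial carrier of S-adenosylmethionine. Both were left untreated. By their labels the siNeg PE and siSlc25a26 PE groups received the same siRNAs, and 12 h after transfection were given phenylephrine (PE), an alpha-adrenergic agonist that makes cardiomyocytes grow, for 36 h. The comparisons ask how PE changed the members under each siRNA, and how they differed between the siRNAs with and without PE. As a model the cultures have limits: the cells are neonatal, whether the siRNA is 1 sequence or a pool is not given in the sources used here, and the RNA comes from whole cultures. Total counts per library lay between 24770972 and 28709049, and the lowest count of any member in any library was 60, for E2f2.

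A cell enters the cycle when cyclin-dependent kinases inactivate the retinoblastoma family, which frees E2F factors to switch on the genes of DNA synthesis. Later, a complex with MYB and the factor FOXM1 switch on the genes of mitosis, many of which carry the sequence elements named CHR and CCAAT in their promoters. Heart muscle cells largely leave the cycle soon after birth, and in culture neonatal cells stand close to that exit, beside non-muscle cells that can still divide.

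Levels are given as CPM, counts scaled to library totals with TMM factors over the 12 libraries, in the order of replicates 1, 2 and 3. Differences are log2 fold changes ± SE from edgeR's quasi-likelihood test with 3 libraries a group, and every adjusted p is a Benjamini-Hochberg value over all genes tested in that comparison. A gene was called, and is said to have risen or fallen, at a fold change above 1.5 with an adjusted p under 0.05. The difference between the PE effects is the PE effect in siSlc25a26 minus that in siNeg.

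Slc25a26 itself was at 33.2, 31.6 and 29.2 CPM in siNeg, 113, 106 and 86.2 in siNeg PE, 15.8, 14.8 and 14.7 in siSlc25a26 and 102, 106 and 98.8 in the libraries labelled siSlc25a26 PE. Without PE it was lower in siSlc25a26 (-1.08 ± 0.08, adjusted p = 1.08e-05), and its groups did not overlap. Under PE it was not (-0.01 ± 0.10, adjusted p = 0.969), and the values of the libraries labelled siSlc25a26 PE lay within the range of siNeg PE. PE raised Slc25a26 by 1.69 ± 0.10 in siNeg (adjusted p = 1.79e-05) and by 2.77 ± 0.06 in siSlc25a26 (adjusted p = 1.49e-08). The last group is therefore called by its label throughout, because its name was not matched by a lower Slc25a26 transcript at the time of harvest. The paper that names these data describes knockdown of another gene, Nap1l5, which the labels do not mention. Nap1l5, chosen after its values were seen, was at 2.54, 3.47 and 4.72 CPM in siNeg, 13.4, 15.9 and 19.4 in siNeg PE, 1.396, 1.95 and 2.75 in siSlc25a26 and 8.78, 8.18 and 6.76 in the libraries labelled siSlc25a26 PE. It was lower in the libraries labelled siSlc25a26 PE than in siNeg PE (-1.05 ± 0.15, adjusted p = 0.000636), and without PE its lower level in siSlc25a26 (-0.84 ± 0.29, adjusted p = 0.0397) came with groups that overlapped. PE raised Nap1l5 in siNeg (2.17) and in siSlc25a26 (1.97). Nppa, the natriuretic peptide gene used as a marker of PE treatment, was at 129.7, 119.9 and 111 CPM in siNeg, 3173, 3408 and 2416 in siNeg PE, 331, 284 and 196 in siSlc25a26 and 5953, 6330 and 6128 in the libraries labelled siSlc25a26 PE. Every PE library held more Nppa than every untreated library, with differences of 4.63 ± 0.14 in siNeg (adjusted p = 2.22e-06) and 4.51 ± 0.17 in siSlc25a26 (adjusted p = 1.99e-07). Between the siRNAs Nppa was higher in the siSlc25a26 libraries without PE (1.14) and under PE (1.02).

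The cultures carried markers of heart muscle at high levels, with Tnnt2, cardiac troponin T, at a mean of 5000 FPKM (fragments scaled to gene length and library total) over the libraries. The 10 cardiomyocyte markers summed to 24050, 25070 and 26180 CPM in siNeg, 30700, 29620 and 29640 in siNeg PE, 21000, 21490 and 23840 in siSlc25a26 and 30130, 28890 and 28390 in the libraries labelled siSlc25a26 PE. PE raised 4 of them in siNeg and 5 in siSlc25a26, and the siRNA comparison without PE held 1 lower, Myh6. The paper's methods describe a Percoll density gradient to part the cardiomyocytes from fibroblasts. Fibroblast markers were nonetheless abundant: the 10 summed to 23670, 21540 and 21840 CPM in siNeg, 12180, 12100 and 11730 in siNeg PE, 14090, 12560 and 13170 in siSlc25a26 and 8780, 8928 and 9578 in the libraries labelled siSlc25a26 PE, led by the collagen gene Col1a1. Their sum was highest in the siNeg libraries and lowest in those labelled siSlc25a26 PE, and 5 of 10 fell with PE in siNeg, 1 fell with PE in siSlc25a26, 6 were lower in siSlc25a26 without PE, and under PE 4 were lower and 1 higher. The 8 smooth muscle and pericyte markers, led by Acta2, summed to 2685, 2454 and 2545 CPM in siNeg, 1778, 1719 and 1423 in siNeg PE, 1526, 1401 and 1610 in siSlc25a26 and 1900, 1838 and 1916 in the libraries labelled siSlc25a26 PE. Of these, 2 rose and 4 fell with PE in siNeg, 3 rose with PE in siSlc25a26, 4 were lower in siSlc25a26 without PE, and under PE 1 was higher and 2 lower. The 8 macrophage markers, led by Cd68, summed to 30.8, 34.1 and 27.6 CPM in siNeg, 18.7, 18.6 and 15.5 in siNeg PE, 19.4, 20.5 and 19.98 in siSlc25a26 and 15.8, 19.1 and 20.7 in the libraries labelled siSlc25a26 PE, with C1qb near 0 at 0.0773 to 0.381 CPM. Endothelial markers, led by Tek, summed to 53.1, 56.1 and 52.4 CPM in siNeg, 42.5, 40.6 and 36.7 in siNeg PE, 44.99, 45.7 and 47.5 in siSlc25a26 and 43.6, 44.2 and 46.2 in the libraries labelled siSlc25a26 PE, and Emcn was at or near 0, with under 10 counts in every library. The 5 epicardial markers, of which Upk3b had the highest FPKM, summed to 44.98, 40.6 and 34.3 CPM in siNeg, 39.9, 44.8 and 39.1 in siNeg PE, 30.99, 26.3 and 29.1 in siSlc25a26 and 27.3, 29.1 and 32.6 in the libraries labelled siSlc25a26 PE. Of the macrophage markers tested, 4 fell with PE in siNeg, 3 were lower in siSlc25a26 without PE and 1 was higher under PE. For endothelial markers, 4 fell with PE in siNeg, 1 rose and 1 fell with PE in siSlc25a26, and 2 were lower in siSlc25a26 without PE. For epicardial markers, 1 rose with PE in siNeg, 1 rose and 1 fell with PE in siSlc25a26, and 3 were lower in siSlc25a26 both without and under PE. The difference between the PE effects was called higher for 4 of 8 smooth muscle markers (Cnn1 1.75, Cspg4 1.10, Acta2 0.88 and Notch3 0.59), 2 of 7 macrophage markers (C1qa 1.05 and Csf1r 0.82) and 1 of 9 endothelial markers (Flt1 0.70). For cardiomyocyte, fibroblast and epicardial markers it lay between -0.48 and 0.51, none called. Of all genes tested, 12.4% rose and 8.24% fell with PE in siNeg, and 10.1% rose and 10.4% fell with PE in siSlc25a26. Without PE 8.92% were higher and 7.2% lower in siSlc25a26, and under PE 7.71% were higher and 8.1% lower. The difference was called higher for 2.16% and lower for 3.34%. The part of these cell types in the differences of the 49 members was not tested, and in bulk RNA fewer cycling cells cannot be told apart from less RNA per cell.

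Together the 49 members summed to 1356, 1266 and 1219 CPM in siNeg, 1936, 2025 and 2079 in siNeg PE, 1085, 1055 and 992 in siSlc25a26 and 1196, 1251 and 1341 in the libraries labelled siSlc25a26 PE. Each siNeg PE library stood above every library of the other groups, and the libraries labelled siSlc25a26 PE lay in the range of siNeg or just under it. The G1/S members summed to 769, 696 and 665 CPM in siNeg, 1124, 1117 and 1109 in siNeg PE, 592, 580.4 and 542 in siSlc25a26 and 695, 697 and 712 in the libraries labelled siSlc25a26 PE. For the G2/M members the sum was 588, 569 and 554 CPM in siNeg, 811, 908 and 969.5 in siNeg PE, 493, 474 and 450.3 in siSlc25a26 and 502, 554 and 629.6 in the libraries labelled siSlc25a26 PE, with a wider spread among the PE libraries than the G1/S members had. Compared per length in siNeg, the most abundant members were Pcna, the sliding clamp of DNA polymerase, at a mean of 48.3 FPKM, and the ribonucleotide reductase subunits Rrm1 at 40.4 and Rrm2 at 40.8 FPKM. The least abundant was the kinetochore protein gene Cenpf at 0.25 FPKM.

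**Figure D1:**
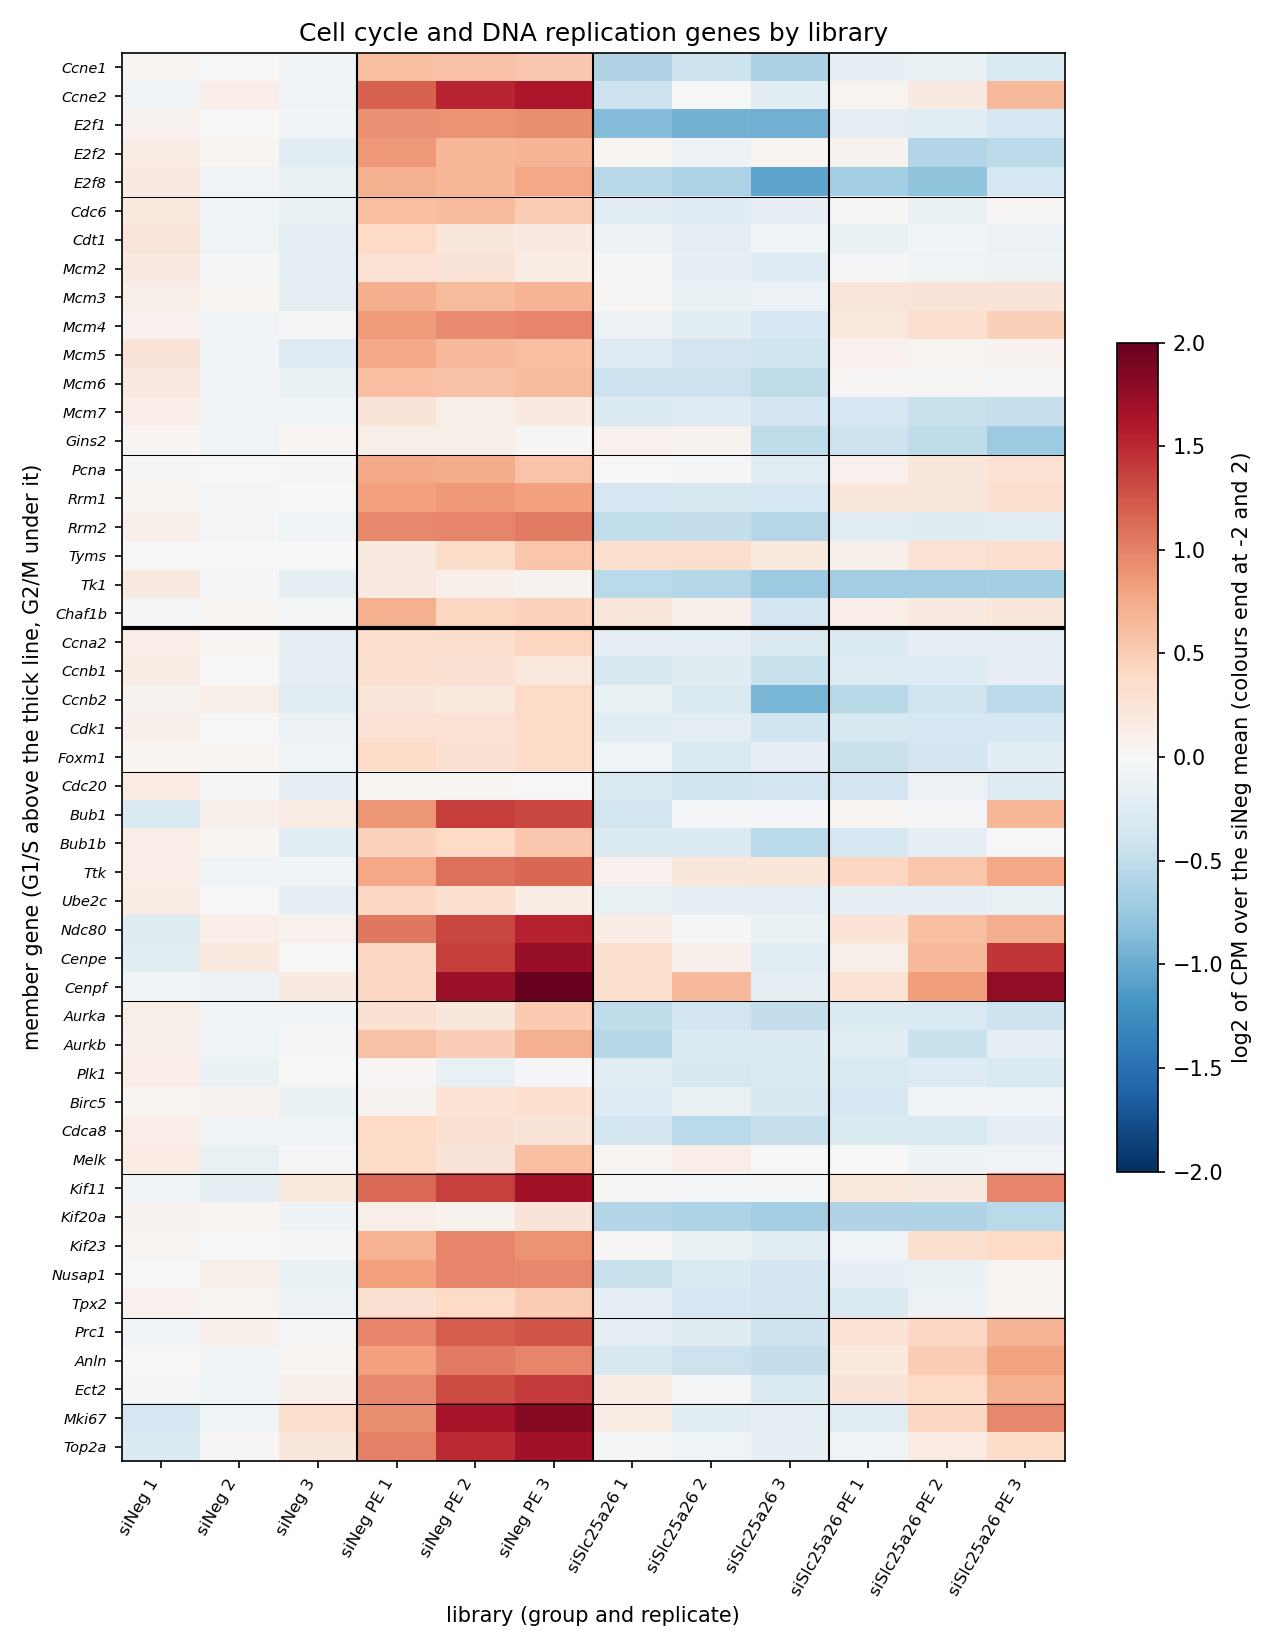
Each line is 1 of the 49 members and each column 1 library, with colour giving log2 CPM minus the gene's mean in siNeg. The siNeg PE columns are mostly above the siNeg mean, with Cenpf past the end of the scale, and the columns labelled siSlc25a26 PE are closer to siNeg.

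PE raised much of the list in siNeg. Of the 49 members 25 rose (51%), 11 of 20 in G1/S and 14 of 29 in G2/M, where 12.4% of all 13719 genes tested rose. By edgeR 0 members fell, where 8.24% of all genes did. DESeq2 and limma on FPKM also called 0 lower, and at an unadjusted p under 0.05 the count was 0 by each of these tools. Limma was run on log2(FPKM + 1), where the added 1 makes the folds of genes at low FPKM smaller. A call can therefore be lost there on the fold threshold alone. At an adjusted p under 0.05 and any fold, 39 members were higher (25.2% of all genes) and 0 lower (24.3% of all genes). The members' median log2 fold change was 0.585, beside 0.000 for all genes tested, and 48 of 49 were above 0, the exception being the mitotic kinase gene Plk1 (-0.06).

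In siSlc25a26 the same treatment moved few members past the thresholds. There 4 of 49 rose (8.16%), namely E2f1, Rrm1, Anln and Prc1, where 10.1% of all 13776 genes rose. In this fit the members' share was thus near that of the whole table. By edgeR 0 fell, where 10.4% of all genes did, and DESeq2 and limma on FPKM also called 0 lower. At an unadjusted p under 0.05, 1 member was lower by edgeR (Gins2) and 1 by DESeq2, and by limma on FPKM 9 were lower and 9 higher. In that limma fit the median of all genes was itself under 0, at -0.125, and that of the members was 0.029. At an adjusted p under 0.05 and any fold, 16 were higher (26.4% of all genes) and 1 lower (26% of all genes). The median was 0.200, beside -0.004 for all genes. DESeq2 called 7 members higher (1362 of 15426 genes) and limma on FPKM 1 (564 of 13776 genes). The count was 12 without siSlc25a26 PE 1, where 1610 of 13956 genes rose, a larger share of the members than of all genes. It was 7 without siSlc25a26 1 (1322 of 13906 genes). Without siSlc25a26 3 the count of members called lower was 1.

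Between the siRNAs without PE few members were called. Lower in siSlc25a26 were 4 of 49 (8.16%), E2f1, E2f8, Tk1 and Kif20a, beside 7.2% of all 13829 genes tested, again a share near that of the whole table. By edgeR 0 were higher, where 8.92% of all genes were, and DESeq2 and limma on FPKM also called 0 higher. At an unadjusted p under 0.05, 1 member was higher by edgeR, 1 by DESeq2 and 1 by limma on FPKM. At an adjusted p under 0.05 and any fold, 23 members were lower (21.7% of all genes) and 1, Tyms, higher (23.3% of all genes). Their median was -0.250, beside 0.015 for all genes, with 44 of 49 under 0. With limma on FPKM 1 member was called lower.

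Under PE the contrast between the siRNAs was wide. Of 49 members 31 were lower in the libraries labelled siSlc25a26 PE (63.3%), 13 of 20 in G1/S and 18 of 29 in G2/M, where 8.1% of all 13671 genes tested were lower. By edgeR 0 were higher, where 7.71% of all genes were. DESeq2 and limma on FPKM also called 0 higher, with a count of 0 at an unadjusted p under 0.05 by each tool. At an adjusted p under 0.05 and any fold, 46 were lower (20.1% of all genes) and 0 higher (20.1% of all genes). The median was -0.619, beside -0.003 for all genes, and all 49 log2 fold changes were under 0. These libraries were the ones in which Slc25a26 was not lower.

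The difference between the PE effects was itself tested over all 12 libraries. It was called lower, a smaller PE effect in siSlc25a26, for 8 of 49 members (16.3%): E2f2, Ccne2, Rrm2, Top2a, Ndc80, Ect2, Nusap1 and Ttk, where 3.34% of all 14097 genes were called lower. By edgeR 0 were called higher, where 2.16% of all genes were. Called higher by DESeq2 and by limma on FPKM were also 0, and 0 members were higher at an unadjusted p under 0.05 by any of the 3 tools. At an adjusted p under 0.05 and any fold, 16 were lower (5.73% of all genes) and 0 higher (5.48% of all genes). The median was -0.372, beside -0.045 for all genes. The count of 8 was 5 without siNeg PE 2, 4 without siNeg PE 3, 3 without siSlc25a26 2, 4 without siSlc25a26 PE 1, 4 without siSlc25a26 PE 2 and 13 without siSlc25a26 PE 3.

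The comparisons of PE in siNeg and of PE in siSlc25a26 share no library. All 4 members called in siSlc25a26 (100% of them) were among the 25 called in siNeg (16% of those), and 46 of 49 log2 fold changes were smaller in siSlc25a26. Across the 49 genes, which are not independent replicates, the log2 fold changes of these comparisons had a Spearman correlation of 0.80, beside 0.74 over 13506 genes. The siRNA comparisons without and under PE share none either: all 4 members lower without PE were among the 31 lower under PE, and the correlation was 0.31 over the members and 0.63 over 13508 genes. In the fit of the difference between the PE effects 47 of 49 members were under 0, beside 7922 of 14097 genes. Over all genes the overlaps of calls were not counted, so those of the members have no share beside them. Comparisons that share the siNeg or the siNeg PE libraries are given side by side for each role, and their calls are not independent of each other. A high value in the siNeg PE libraries enters both a rise with PE in siNeg and a lower level under PE.

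**Figure D2:**
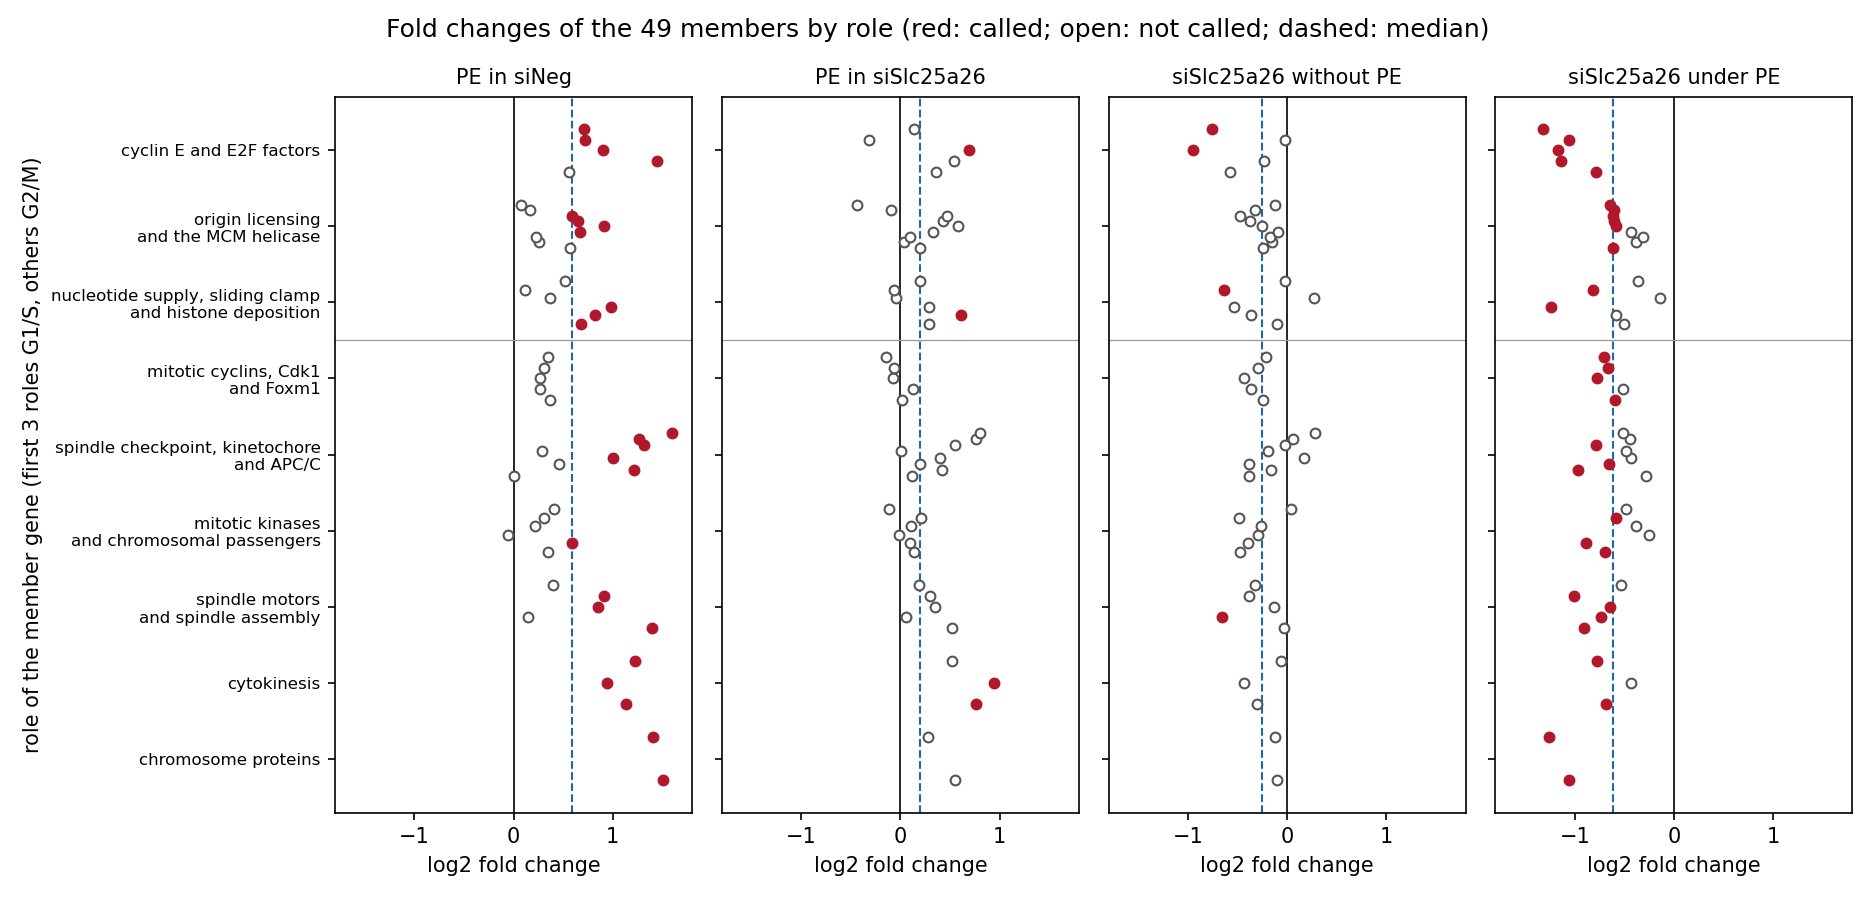
Points are log2 fold changes of the 49 members by role, with a panel for each comparison and a dashed line at the members' median. The medians are 0.585 for PE in siNeg, 0.200 for PE in siSlc25a26, -0.250 for siSlc25a26 without PE and -0.619 under PE.

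Cyclin E and the E2F factors stand at the start of DNA synthesis. Ccne1, a cyclin E that activates Cdk2, was at 19.1, 18.7 and 17.9 CPM in siNeg, 28.3, 27.8 and 26.9 in siNeg PE, 12.2, 13.8 and 11.9 in siSlc25a26 and 16.5, 16.9 and 15.1 in the libraries labelled siSlc25a26 PE. Its 4 groups did not overlap, with siSlc25a26 lowest and siNeg PE highest. Ccne1 was -0.79 ± 0.08 under PE (adjusted p = 9.41e-05), a called difference, while PE in siNeg (0.56 ± 0.07, adjusted p = 0.000398) and siSlc25a26 without PE (-0.58 ± 0.09, adjusted p = 0.000729) were just short of the fold threshold. The former was called without siNeg 1 (0.60), and the latter without siNeg 3 (-0.63) or siSlc25a26 2 (-0.64) and with DESeq2 (-0.59) and with DESeq2 size factors (-0.59). Ccne2, the other cyclin E, was at 3.37, 3.85 and 3.28 CPM in siNeg, 7.96, 10.1 and 10.8 in siNeg PE, 2.62, 3.47 and 2.99 in siSlc25a26 and 3.63, 3.97 and 5.49 in the libraries labelled siSlc25a26 PE. Only siNeg PE stood apart, with every library above all libraries of the other groups. PE in siNeg raised it (1.44 ± 0.15, adjusted p = 0.000208), and it was lower under PE in the libraries labelled siSlc25a26 PE (-1.14 ± 0.18, adjusted p = 0.00119). PE in siSlc25a26 gave 0.54 ± 0.20, not called (adjusted p = 0.0443).

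E2f1, an activator of S-phase genes, was at 27.04, 25.5 and 24.6 CPM in siNeg, 48.6, 47.7 and 49.2 in siNeg PE, 14.03, 13.4 and 13.2 in siSlc25a26 and 22.8, 22.2 and 20.4 in the libraries labelled siSlc25a26 PE. The groups were all separate, in the order siSlc25a26, siSlc25a26 PE as labelled, siNeg and siNeg PE. E2f1 was called in 4 comparisons, with 0.90 ± 0.07 for PE in siNeg (adjusted p = 3.43e-05), 0.70 ± 0.07 for PE in siSlc25a26 (adjusted p = 7.48e-05), -0.95 ± 0.08 for the siRNA without PE (adjusted p = 1.86e-05) and -1.16 ± 0.07 under PE (adjusted p = 3.27e-06). Its PE effect in siSlc25a26 was short of the fold threshold with limma on FPKM (0.45). Its difference between the PE effects was -0.23 ± 0.09 and not called (adjusted p = 0.124). E2f2, a second activator, was at 3.95, 3.66 and 3.099 CPM in siNeg, 6.49, 5.64 and 5.71 in siNeg PE, 3.71, 3.34 and 3.72 in siSlc25a26 and 3.75, 2.38 and 2.47 in the libraries labelled siSlc25a26 PE. Its siNeg PE libraries were the highest and the other groups overlapped. PE raised it in siNeg (0.72 ± 0.14, adjusted p = 0.00359), and it was lower under PE in the libraries labelled siSlc25a26 PE (-1.06 ± 0.19, adjusted p = 0.00216). E2f8, a repressor of the family, was at 7.39, 6.22 and 5.98 CPM in siNeg, 10.7, 10.3 and 11.2 in siNeg PE, 4.43, 4.27 and 3.13 in siSlc25a26 and 4.096, 3.73 and 5.101 in the libraries labelled siSlc25a26 PE. Both siSlc25a26 groups lay below siNeg and overlapped each other, and siNeg PE lay above. E2f8 rose with PE in siNeg (0.70 ± 0.12, adjusted p = 0.00178) and was lower in the siSlc25a26 libraries without PE (-0.75 ± 0.16, adjusted p = 0.00505) and under PE (-1.32 ± 0.14, adjusted p = 0.000114). The call without PE was lost with limma on FPKM (-0.40). Of the 5 genes of this role 4 rose with PE in siNeg and all 5 were lower under PE, with a median there of -1.14.

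Origin licensing loads the MCM helicase onto DNA before replication. Mcm2, a helicase subunit, was at 75.2, 65.4 and 58.5 CPM in siNeg, 81.4, 79.5 and 73.8 in siNeg PE, 64.3, 59.5 and 55.6 in siSlc25a26 and 65.5, 63.1 and 62.02 in the libraries labelled siSlc25a26 PE. Its siNeg values overlapped all other groups, and siNeg PE lay above both siSlc25a26 groups. No comparison called Mcm2: PE in siNeg gave 0.22 ± 0.09 (adjusted p = 0.0771), PE in siSlc25a26 0.10 ± 0.06 (adjusted p = 0.232), of the other sign with limma on FPKM (-0.07), the siRNA without PE -0.18 ± 0.09 (adjusted p = 0.159) and under PE -0.31 ± 0.07 (adjusted p = 0.00609). Mcm4, another subunit, was at 40.9, 37.03 and 37.6 CPM in siNeg, 69.2, 74.1 and 75.9 in siNeg PE, 35.5, 32.9 and 30.6 in siSlc25a26 and 44.8, 48.5 and 53.6 in the libraries labelled siSlc25a26 PE. All of its groups were separate, siNeg PE being the highest. In siNeg it rose with PE (0.91 ± 0.07, adjusted p = 4.98e-05), and it was lower under PE (-0.59 ± 0.08, adjusted p = 0.000636). Mcm3, Mcm5 and Mcm6 also rose with PE in siNeg (0.67, 0.65 and 0.59), so that 4 of the 9 licensing genes were called. Under PE 6 of 9 were lower: the loading factor Cdc6 (-0.62), Mcm4, Mcm5 (-0.61), Mcm6 (-0.61), Mcm7 (-0.60) and the helicase partner Gins2 (-0.64). For Cdt1, the other loading factor, the values were 0.26 with PE in siNeg and -0.38 under PE, neither called. Across the role the differences with PE in siSlc25a26 ran from -0.44 to 0.58 and those without PE from -0.48 to -0.10, none of them called by edgeR.

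Mcm5 and Mcm6 rose with PE in siNeg and were lower under PE, and their promoters are shown because E2F-type words, the letters that E2F factors are known to bind, stand in them. RefSeq promoters of build GRCr8, from 250 bases before to 50 after the start of the gene, were matched by gene identifier for 37 of the 49 members. Promoters of Ccne2, E2f1, E2f2, E2f8, Cdc6, Mcm4, Rrm2, Ccna2, Foxm1, Ube2c, Aurkb and Tpx2 were not among those matched. Searched on both strands were the E2F-type words TTTGGCGC, TTTCGCGC, TTTCCCGC and TTTGCCGC, the CHR words TTTGAA and TTCGAA, and CCAAT. The Mcm5 window is chr19:13488563-13488862 on the plus strand and the Mcm6 window is chr13:42404303-42404602 on the minus strand. Each is printed 5′ to 3′ along the gene, with matched words of either strand in capitals; a run longer than a word is formed by words that overlap.
Mcm5: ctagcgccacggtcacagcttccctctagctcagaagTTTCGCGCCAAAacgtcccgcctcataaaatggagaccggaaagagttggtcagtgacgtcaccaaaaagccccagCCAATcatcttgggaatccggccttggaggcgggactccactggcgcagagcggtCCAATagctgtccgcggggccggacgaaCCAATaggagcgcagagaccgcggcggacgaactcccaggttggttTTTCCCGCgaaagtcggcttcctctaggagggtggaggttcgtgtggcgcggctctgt
Mcm6: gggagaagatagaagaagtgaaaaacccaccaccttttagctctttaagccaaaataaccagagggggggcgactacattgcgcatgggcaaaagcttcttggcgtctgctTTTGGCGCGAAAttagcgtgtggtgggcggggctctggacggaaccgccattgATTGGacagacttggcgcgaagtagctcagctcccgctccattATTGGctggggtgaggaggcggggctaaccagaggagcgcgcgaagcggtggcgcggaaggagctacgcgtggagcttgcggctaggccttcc
An E2F-type word stood in 7 of 13 G1/S promoters (53.8%), in 1 of 24 G2/M promoters (4.17%) and in 716 of all 33469 promoters in the table (2.14%). A CHR word stood in 3 of 13 (23.1%), 17 of 24 (70.8%) and 6608 of all (19.7%), and CCAAT in 7 of 13 (53.8%), 18 of 24 (75.0%) and 12549 of all (37.5%). Mcm5 and Mcm6 were picked for their calls and their words together: E2F-type words stood also in Mcm2, Cdt1 and Tyms, which no comparison called, and in none of the Pcna and Rrm1 windows, whose genes rose with PE in siNeg. A match is a description of the letters, not a binding site.

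Nucleotide supply, the sliding clamp and histone deposition serve the moving replication fork. Pcna was at 51.9, 50.8 and 50.4 CPM in siNeg, 86.7, 85.3 and 76.1 in siNeg PE, 51.05, 50.4 and 43.7 in siSlc25a26 and 54.3, 59.5 and 62.2 in the libraries labelled siSlc25a26 PE. Its siNeg PE libraries were the highest, those labelled siSlc25a26 PE lay between them and siNeg, and the untreated groups overlapped. PE in siNeg raised it (0.68 ± 0.06, adjusted p = 0.000106), while PE in siSlc25a26 gave 0.29 ± 0.08 (adjusted p = 0.0145) and the siRNA under PE -0.50 ± 0.08 (adjusted p = 0.00158), neither past the fold threshold. Rrm1, the large subunit of ribonucleotide reductase, was at 119, 112 and 115 CPM in siNeg, 203, 212 and 203 in siNeg PE, 91.3, 92.8 and 90.1 in siSlc25a26 and 136, 135 and 145 in the libraries labelled siSlc25a26 PE. All groups were separate, and PE libraries stood above the untreated libraries of the same siRNA. The gene rose with PE in siNeg (0.82 ± 0.05, adjusted p = 1.89e-05) and in siSlc25a26 (0.61 ± 0.05, adjusted p = 1.77e-05); the latter was short of the fold threshold without siSlc25a26 PE 3 (0.57) and with limma on FPKM (0.42). Rrm2, the small subunit, was at 105, 95.5 and 91.8 CPM in siNeg, 190.4, 191 and 201 in siNeg PE, 69.1, 70.2 and 65.6 in siSlc25a26 and 82.9, 82.2 and 83.2 in the libraries labelled siSlc25a26 PE. No groups overlapped, and the libraries labelled siSlc25a26 PE were below siNeg. Rrm2 rose with PE in siNeg (0.98 ± 0.07, adjusted p = 2.64e-05) and was lower under PE (-1.24 ± 0.05, adjusted p = 4.12e-07). Tk1, the thymidine kinase of the salvage route, was at 55.2, 47.8 and 43.01 CPM in siNeg, 55.4, 52.5 and 51.1 in siNeg PE, 33.5, 32.7 and 29.4 in siSlc25a26 and 29.9, 30.1 and 30.6 in the libraries labelled siSlc25a26 PE. Both siSlc25a26 groups lay below both siNeg groups, and within each siRNA the PE and untreated values overlapped. Tk1 was lower without PE (-0.64 ± 0.10, adjusted p = 0.000828) and under PE (-0.82 ± 0.07, adjusted p = 3.19e-05). The call without PE was lost without siNeg 1 (-0.54) or siSlc25a26 3 (-0.58) and with limma on FPKM (-0.54). The thymidylate synthase gene Tyms and the histone chaperone gene Chaf1b were not called in any comparison, at 0.36 and 0.52 with PE in siNeg and -0.14 and -0.36 under PE.

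**Figure D3:**
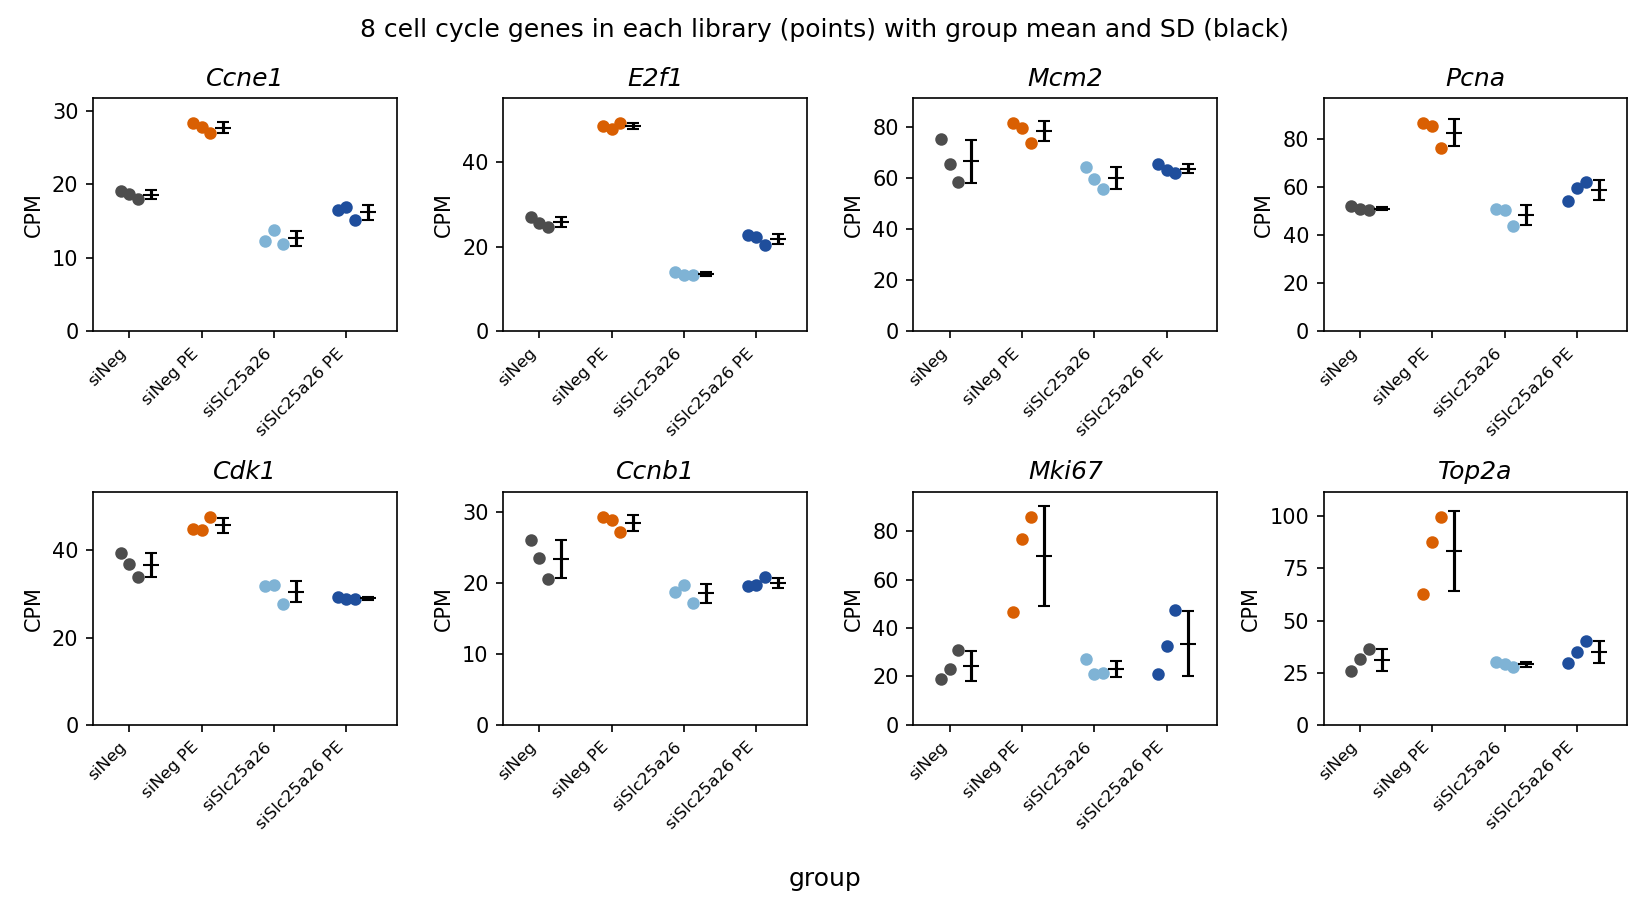
CPM of 8 members in each library as points, with the mean and SD of each group of 3 in black. E2f1 is at 13.24 to 14.03 CPM in siSlc25a26 and 47.74 to 49.21 in siNeg PE, and the Mki67 and Top2a points are spread most within the PE groups.

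Mitotic cyclins, Cdk1 and Foxm1 drive entry into mitosis. Cdk1, the mitotic kinase, was at 39.4, 36.8 and 33.8 CPM in siNeg, 44.9, 44.5 and 47.7 in siNeg PE, 31.8, 31.98 and 27.7 in siSlc25a26 and 29.4, 28.8 and 28.8 in the libraries labelled siSlc25a26 PE. Its siNeg PE libraries were above siNeg, and both siSlc25a26 groups were below it. The gene was lower under PE (-0.67 ± 0.06, adjusted p = 7.38e-05). With PE in siNeg it was 0.31 ± 0.08 (adjusted p = 0.0119), with PE in siSlc25a26 -0.06 ± 0.07 (adjusted p = 0.479) and without PE -0.29 ± 0.08 (adjusted p = 0.0203), none called. Ccnb1, a cyclin B partner of Cdk1, was at 25.99, 23.5 and 20.6 CPM in siNeg, 29.3, 28.9 and 27.1 in siNeg PE, 18.7, 19.7 and 17.1 in siSlc25a26 and 19.6, 19.6 and 20.8 in the libraries labelled siSlc25a26 PE. Here siNeg PE was highest, siSlc25a26 lay below siNeg, and the libraries labelled siSlc25a26 PE overlapped both untreated groups. Ccnb1 was 0.27 ± 0.09 with PE in siNeg (adjusted p = 0.0441), 0.12 ± 0.08 with PE in siSlc25a26 (adjusted p = 0.22), of the other sign with limma on FPKM (-0.04), -0.36 ± 0.10 without PE (adjusted p = 0.019) and -0.51 ± 0.08 under PE (adjusted p = 0.000897), and it was not called in any of them. The 5 genes of this role differed by 0.27 to 0.37 with PE in siNeg, all short of the fold threshold. Under PE 4 of 5 were lower, Cdk1, the cyclin genes Ccna2 (-0.60) and Ccnb2 (-0.78) and the transcription factor gene Foxm1 (-0.71).

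The Cdk1 promoter is shown with those of Top2a, Nusap1 and Ect2, G2/M members called for the difference between the PE effects. Cdk1 was the G2/M promoter with an E2F-type word, and it held CHR words and CCAAT as well. These windows of build GRCr8 are chr20:19265043-19265342 on the plus strand for Cdk1, chr10:84473044-84473343 on the minus strand for Top2a, chr3:127057045-127057344 on the plus strand for Nusap1 and chr2:111966577-111966876 on the minus strand for Ect2. Capitals mark the same words as in the MCM promoters, on either strand.
Cdk1: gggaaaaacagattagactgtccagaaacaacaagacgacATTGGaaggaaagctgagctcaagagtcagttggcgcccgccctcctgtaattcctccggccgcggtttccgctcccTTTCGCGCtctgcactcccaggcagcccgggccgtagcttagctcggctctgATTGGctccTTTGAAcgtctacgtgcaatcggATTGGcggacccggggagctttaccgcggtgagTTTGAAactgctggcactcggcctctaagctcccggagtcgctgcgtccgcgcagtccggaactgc
Top2a: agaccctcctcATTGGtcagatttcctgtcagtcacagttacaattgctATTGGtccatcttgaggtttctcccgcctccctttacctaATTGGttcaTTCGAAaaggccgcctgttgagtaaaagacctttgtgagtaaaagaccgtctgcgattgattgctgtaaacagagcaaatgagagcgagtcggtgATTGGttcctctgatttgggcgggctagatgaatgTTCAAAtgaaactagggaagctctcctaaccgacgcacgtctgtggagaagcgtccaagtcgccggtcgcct
Nusap1: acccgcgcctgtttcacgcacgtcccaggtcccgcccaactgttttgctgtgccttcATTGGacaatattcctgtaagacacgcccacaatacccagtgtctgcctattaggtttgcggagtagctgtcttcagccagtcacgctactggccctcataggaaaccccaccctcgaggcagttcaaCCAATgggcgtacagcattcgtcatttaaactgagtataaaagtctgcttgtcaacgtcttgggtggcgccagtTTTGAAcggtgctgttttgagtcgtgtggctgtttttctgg
Ect2: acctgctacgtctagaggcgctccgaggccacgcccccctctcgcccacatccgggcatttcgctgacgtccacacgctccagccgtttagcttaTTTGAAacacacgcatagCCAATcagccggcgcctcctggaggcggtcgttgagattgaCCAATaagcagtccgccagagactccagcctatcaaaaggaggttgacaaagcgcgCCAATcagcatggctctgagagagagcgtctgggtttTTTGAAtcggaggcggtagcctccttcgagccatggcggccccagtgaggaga
The Top2a, Nusap1 and Ect2 windows held CHR words and CCAAT. Of the other G2/M members called for the difference, the Ttk window held both and the Ndc80 window a CHR word without CCAAT.

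Spindle checkpoint and kinetochore proteins hold cells in mitosis until chromosomes are attached. Bub1, a checkpoint kinase, was at 5.94, 7.78 and 8.04 CPM in siNeg, 13.4, 18.97 and 18.4 in siNeg PE, 5.55, 7.11 and 7.05 in siSlc25a26 and 7.53, 7.03 and 11.6 in the libraries labelled siSlc25a26 PE. Its siNeg PE libraries were above all others, and the other groups overlapped. Bub1 rose with PE in siNeg (1.21 ± 0.17, adjusted p = 0.000814) and was lower under PE (-0.96 ± 0.20, adjusted p = 0.00506). Ndc80, which ties kinetochores to microtubules, was at 5.15, 6.67 and 6.42 CPM in siNeg, 12.7, 15.3 and 17.7 in siNeg PE, 6.71, 5.95 and 5.56 in siSlc25a26 and 7.33, 9.18 and 10.01 in the libraries labelled siSlc25a26 PE. The libraries labelled siSlc25a26 PE lay between siNeg PE and the untreated groups. PE raised Ndc80 in siNeg (1.31 ± 0.16, adjusted p = 0.000378), and it was lower under PE (-0.79 ± 0.15, adjusted p = 0.00327). Cenpf, a large kinetochore protein, was at 2.39, 2.33 and 2.84 CPM in siNeg, 3.34, 8.36 and 11.3 in siNeg PE, 3.13, 3.97 and 2.22 in siSlc25a26 and 3.04, 4.49 and 8.58 in the libraries labelled siSlc25a26 PE. The PE groups were spread widely, replicate 1 being lowest and replicate 3 highest in both. Cenpf rose with PE in siNeg (1.60 ± 0.39, adjusted p = 0.0107). With limma on FPKM the call was lost on the fold threshold (0.46, adjusted p = 0.0372). Under PE Cenpf was -0.52 ± 0.45 (adjusted p = 0.393). With Ttk (1.00) and the kinetochore motor gene Cenpe (1.27), 5 of the 8 genes of this role rose with PE in siNeg. Under PE 3 of 8 were lower, Bub1, Ndc80 and the checkpoint gene Bub1b (-0.65). Cdc20 and Ube2c, which help the anaphase-promoting complex, were at 0.01 and 0.29 with PE in siNeg and -0.28 and -0.48 under PE, not called.

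Among the mitotic kinases and chromosomal passengers, 1 of 6 rose with PE in siNeg, the passenger kinase gene Aurkb (0.585 ± 0.09, adjusted p = 0.00127). Its fold lay almost on the threshold of the call, and its alternatives were not examined gene by gene. The other genes of this role lay between -0.06 (Plk1) and 0.40 (Melk). Under PE 3 of 6 were lower: Aurkb (-0.89), the spindle pole kinase gene Aurka (-0.69) and the passenger gene Cdca8 (-0.59), and Plk1, Birc5 and Melk were at -0.26, -0.38 and -0.48. In these 6 genes the PE effect in siSlc25a26 lay between -0.12 and 0.21.

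Spindle motors and assembly factors build and move the spindle. Kif11, the motor that pushes spindle poles apart, was at 7.61, 6.98 and 9.04 CPM in siNeg, 17.3, 20.2 and 25.1 in siNeg PE, 8.004, 7.77 and 7.78 in siSlc25a26 and 9.13, 8.899 and 15.5 in the libraries labelled siSlc25a26 PE. Its siNeg PE libraries were the highest, and among the libraries labelled siSlc25a26 PE the third was above the other two. PE raised Kif11 in siNeg (1.40 ± 0.16, adjusted p = 0.000323), and it was lower under PE (-0.91 ± 0.22, adjusted p = 0.0103). Kif20a, a kinesin of the late spindle, was at 51.2, 50.3 and 45.5 CPM in siNeg, 53.3, 51.4 and 58.7 in siNeg PE, 32.7, 32.1 and 30.3 in siSlc25a26 and 32.4, 32.4 and 33.6 in the libraries labelled siSlc25a26 PE. As with Tk1, both siSlc25a26 groups lay below both siNeg groups. Kif20a was lower without PE (-0.65 ± 0.07, adjusted p = 9.76e-05) and under PE (-0.74 ± 0.07, adjusted p = 8.16e-05), the former not past the fold threshold with limma on FPKM (-0.56). Nusap1, which bundles spindle microtubules, was at 13.2, 14.3 and 11.9 CPM in siNeg, 23.3, 25.7 and 25.7 in siNeg PE, 9.67, 10.9 and 10.04 in siSlc25a26 and 11.8, 12 and 13.6 in the libraries labelled siSlc25a26 PE. The siNeg PE libraries stood apart above the rest. It rose with PE in siNeg (0.91 ± 0.10, adjusted p = 0.000209) and was lower under PE (-1.01 ± 0.09, adjusted p = 5.25e-05). With the midzone motor gene Kif23 (0.85 and -0.65), 3 of the 5 genes rose with PE in siNeg and 4 were lower under PE. Tpx2, a spindle assembly factor, was at 0.39 and -0.53 and not called.

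Of the 3 cytokinesis genes PE raised 3 in siNeg and 2, Anln and Prc1, in siSlc25a26. Anln, the anillin of the cleavage furrow, was at 38.3, 36.6 and 39.6 CPM in siNeg, 67.7, 78.4 and 75.4 in siNeg PE, 30.7, 28.4 and 27.4 in siSlc25a26 and 43.5, 54.5 and 66.8 in the libraries labelled siSlc25a26 PE. All groups were separate, and the PE libraries of each siRNA stood above its untreated ones. Anln rose with PE in siNeg (0.94 ± 0.07, adjusted p = 5.3e-05) and in siSlc25a26 (0.94 ± 0.14, adjusted p = 0.000504), with a difference between the PE effects of -0.02 ± 0.17 (adjusted p = 0.955). Under PE it was -0.43 ± 0.14 (adjusted p = 0.0359), not called. Prc1, which crosslinks microtubules of the midzone, was at 25.6, 28.6 and 25.9 CPM in siNeg, 52.4, 61.5 and 63.7 in siNeg PE, 23.4, 22.5 and 20.1 in siSlc25a26 and 32.4, 35.5 and 42.9 in the libraries labelled siSlc25a26 PE. Its groups were separate too. Prc1 rose with PE in siNeg (1.14 ± 0.09, adjusted p = 6.26e-05) and in siSlc25a26 (0.76 ± 0.11, adjusted p = 0.000486), the latter short of the fold threshold with limma on FPKM (0.52), and was lower under PE (-0.69 ± 0.12, adjusted p = 0.00164). Ect2, needed for the cell to divide after mitosis, was at 6.71, 6.41 and 7.34 CPM in siNeg, 13.3, 16.8 and 17.96 in siNeg PE, 7.59, 6.65 and 5.63 in siSlc25a26 and 8.11, 8.98 and 11.2 in the libraries labelled siSlc25a26 PE. The untreated groups overlapped, with the libraries labelled siSlc25a26 PE above them and siNeg PE highest. Ect2 rose with PE in siNeg (1.22 ± 0.14, adjusted p = 0.000267), was lower under PE (-0.77 ± 0.15, adjusted p = 0.0034), and with PE in siSlc25a26 was 0.52 ± 0.16 (adjusted p = 0.0202), not called.

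The chromosome proteins are Mki67, a coat of mitotic chromosomes widely stained to mark cycling cells, and Top2a, the topoisomerase that untangles sister chromosomes. Mki67 was at 19.1, 23.1 and 31.1 CPM in siNeg, 46.5, 76.8 and 86.1 in siNeg PE, 27.1, 20.9 and 21.5 in siSlc25a26 and 20.9, 32.5 and 47.6 in the libraries labelled siSlc25a26 PE. The siNeg PE libraries were above both untreated groups, but replicate 3 labelled siSlc25a26 PE was above replicate 1 of siNeg PE. Mki67 rose with PE in siNeg (1.51 ± 0.25, adjusted p = 0.00169). With PE in siSlc25a26 it was 0.55 ± 0.25 (adjusted p = 0.0957), not called, and it was called without siSlc25a26 PE 1 (0.80), with adjusted p from 0.00251 to 0.36 over its alternatives. Under PE it was lower (-1.06 ± 0.29, adjusted p = 0.0187), a call lost without siNeg PE 2 (-0.99), siNeg PE 3 (-0.90) or siSlc25a26 PE 2 (-1.03), with adjusted p from 5.03e-05 to 0.0737. Without PE the siRNA gave -0.10 ± 0.17 (adjusted p = 0.662), of the other sign without siNeg 3 (0.09). Top2a was at 25.7, 31.5 and 36.3 CPM in siNeg, 62.6, 87.6 and 99.7 in siNeg PE, 30.2, 29.3 and 27.8 in siSlc25a26 and 29.8, 34.8 and 40.2 in the libraries labelled siSlc25a26 PE. Every siNeg PE library was above all libraries of the other groups, which overlapped. Top2a rose with PE in siNeg (1.41 ± 0.18, adjusted p = 0.000583) and was lower under PE (-1.26 ± 0.17, adjusted p = 0.000452), while PE in siSlc25a26 gave 0.27 ± 0.11 (adjusted p = 0.0547) and the siRNA without PE -0.12 ± 0.11 (adjusted p = 0.396).

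The difference between the PE effects was largest in size for Top2a (-1.15 ± 0.23, adjusted p = 0.00732) and E2f2 (-1.06 ± 0.24, adjusted p = 0.0142) among the members called. For Rrm2 it was -0.72 ± 0.08 (adjusted p = 0.000275), and Rrm2 and Top2a were called under all 18 alternatives. E2f2 lost the call with limma on FPKM (-0.50). Nusap1 was at -0.64 ± 0.13 (adjusted p = 0.00812) and short of the fold threshold without siNeg 3 (-0.57) or siSlc25a26 2 (-0.58). Ccne2 was at -0.93 ± 0.25 (adjusted p = 0.0314, from 0.0109 to 0.0998 over its alternatives). Its call was lost without siNeg 1 (-0.90), siNeg 3 (-0.89), siNeg PE 2 (-0.89), siNeg PE 3 (-0.82), siSlc25a26 2 (-0.81), siSlc25a26 3 (-0.93), siSlc25a26 PE 1 (-0.81) or siSlc25a26 PE 2 (-0.87).

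The calls of Ndc80 and Ect2 for the difference, like that of Ccne2, changed with the libraries used. The Ndc80 value was -0.78 ± 0.22 (adjusted p = 0.0366, from 0.0175 to 0.097 over its alternatives), not called without siNeg 1 (-0.68), siNeg PE 2 (-0.78), siNeg PE 3 (-0.65), siSlc25a26 1 (-0.70), siSlc25a26 2 (-0.79), siSlc25a26 PE 1 (-0.67) or siSlc25a26 PE 2 (-0.81) and with limma on FPKM (-0.48). The Ect2 value was -0.72 ± 0.21 (adjusted p = 0.0456, from 0.0207 to 0.122 over its alternatives), not called without siNeg 1 (-0.71), siNeg 2 (-0.68), siNeg PE 2 (-0.69), siNeg PE 3 (-0.62), siSlc25a26 1 (-0.61), siSlc25a26 2 (-0.72), siSlc25a26 PE 1 (-0.63) or siSlc25a26 PE 2 (-0.69) and with DESeq2 size factors (-0.70). For Ttk, a checkpoint kinase, the difference was -0.62 ± 0.18 (adjusted p = 0.0423). For Mki67 the difference was -0.98 ± 0.40 and not called (adjusted p = 0.138), and it was called without siSlc25a26 PE 3 (-1.31) and with a replicate block (-1.05); the adjusted p ran from 0.0403 to 0.293 over its alternatives. Of the others with full values, Pcna was at -0.42 ± 0.11 (adjusted p = 0.0255), Cdk1 at -0.39 ± 0.10 (adjusted p = 0.0285), Ccne1 at -0.22, Mcm2 at -0.15 and Ccnb1 at -0.17, none called.

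**Figure D4:**
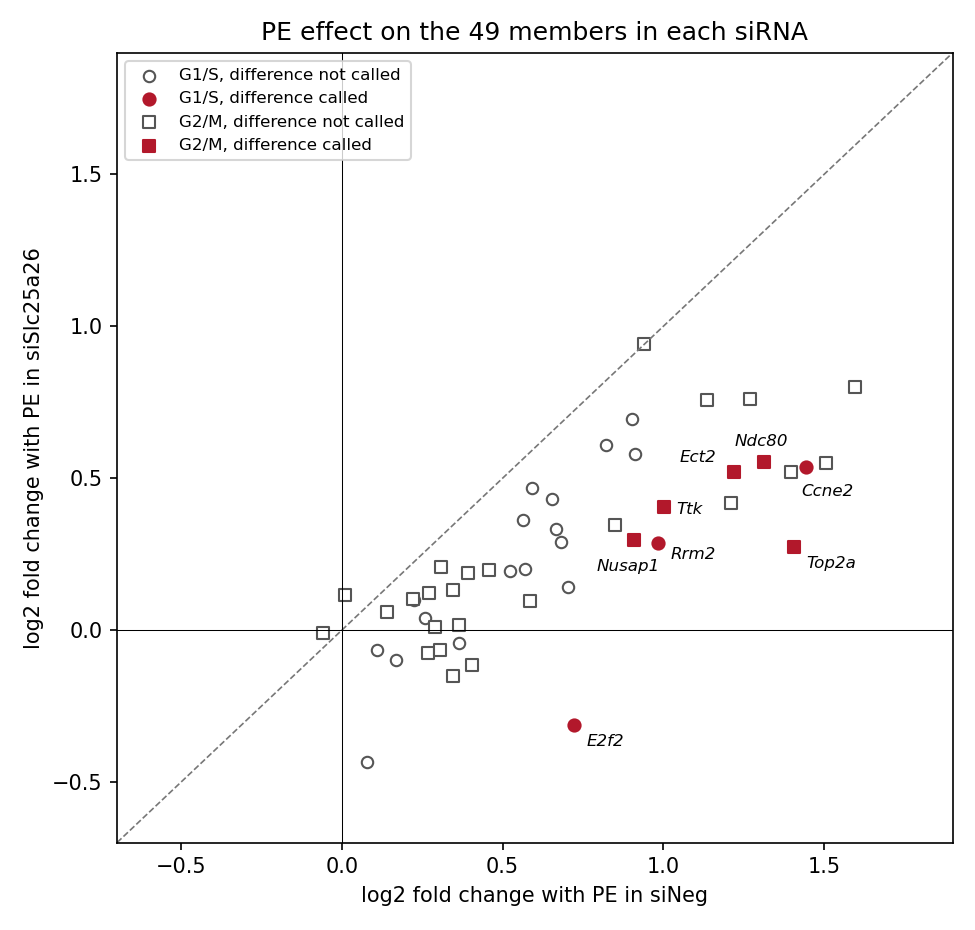
The log2 fold change with PE in siSlc25a26 (vertical) is plotted against that in siNeg (horizontal) for the 49 members, with equal effects on the dashed line. The 8 members called for the difference, filled and named, lie under the line, from Top2a (1.41 and 0.27) to E2f2 (0.72 and -0.31).

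Long members had the larger PE effects in siNeg. Lengths in kb were implied by the ratio of counts to FPKM. Across the 49 members the log2 fold change with PE in siNeg had a Spearman correlation with length of 0.61 (0.27 over the 20 G1/S and 0.78 over the 29 G2/M members), beside 0.11 over 13548 genes. The 13 members of 3.39 kb or more had a median of 1.21 where 4516 genes of that length had 0.068, and the 11 shortest, in the lowest of 3 equal length groups, had 0.307 where 4516 such genes had -0.025. With PE in siSlc25a26 the correlation was 0.46 over the members (0.03 over the G1/S and 0.68 over the G2/M members) and 0.08 over 13600 genes. Under PE it was -0.28 over the members (-0.29 over the G1/S and -0.26 over the G2/M members) and 0.11 over 13540 genes. Without PE it was 0.32 over the members (-0.08 over the G1/S and 0.52 over the G2/M members) and 0.16 over 13614 genes. For the difference between the PE effects it was -0.46 over the members (-0.20 over the G1/S and -0.58 over the G2/M members) and -0.06 over 13739 genes. The median deviation of the 16 longest members from their group mean (log2) was -0.192, 0.050 and 0.102 in siNeg PE 1, 2 and 3, and -0.197, -0.029 and 0.209 in siSlc25a26 PE 1, 2 and 3, where the 17 shortest lay between -0.029 and 0.028. Without PE the shortest were the more spread in siNeg (0.104, -0.006 and -0.111, the longest -0.007, -0.032 and 0.046), and in siSlc25a26 the shortest were at 0.050, 0.061 and -0.070 and the longest at 0.097, 0.005 and -0.105. The part of transcript length in the PE effects and in their difference was not tested.

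**Figure D5:**
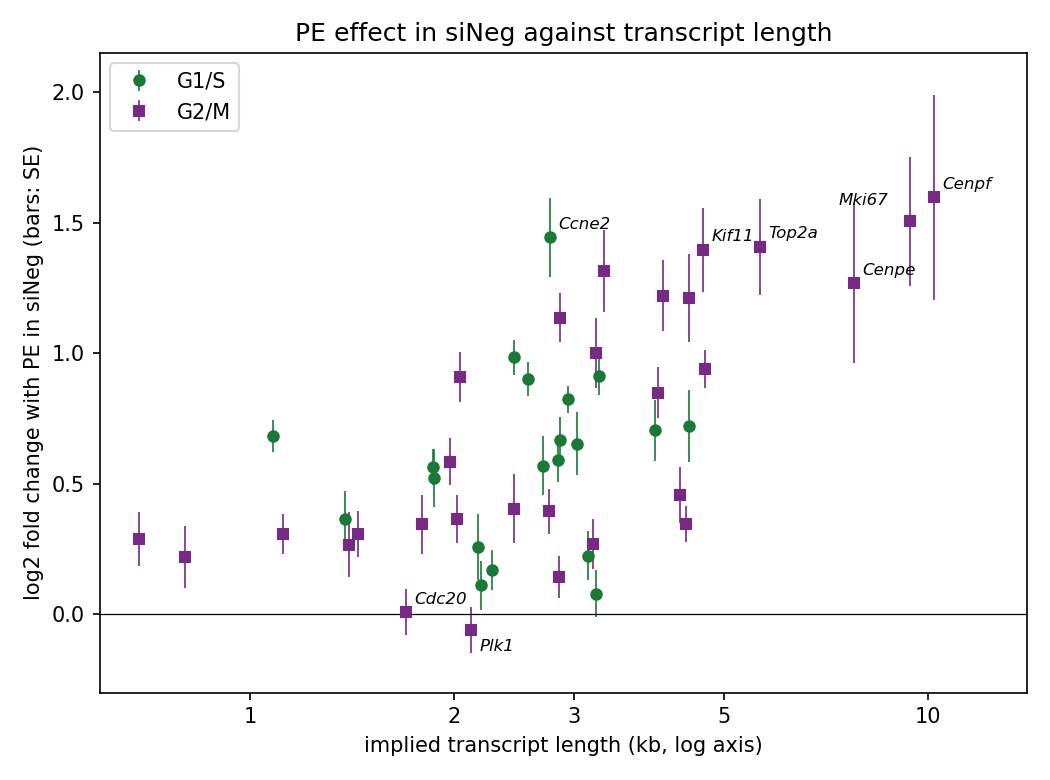
Log2 fold change with PE in siNeg, with its SE, against implied length in kb on a log axis for the 49 members. Cenpf and Mki67, the longest, are at 1.60 and 1.51, and Cdc20 and Plk1 are at 0.01 and -0.06.

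Other replication genes, 30 outside the members, are given beside the shares of all genes tested. With PE 10 rose in siNeg (33.3%, all genes 12.4%) and 2 in siSlc25a26 (6.67%, all genes 10.1%), and 1 was lower without PE (3.33%, all genes 7.2%) and 8 under PE (26.7%, all genes 8.1%), with medians of 0.498, 0.215, -0.144 and -0.467. Pola1, the catalytic subunit of DNA polymerase alpha, was at 3.73, 4.39 and 5.42 CPM in siNeg, 9.59, 13.96 and 14.8 in siNeg PE, 6.95, 6.18 and 5.07 in siSlc25a26 and 7.801, 8.54 and 11.1 in the libraries labelled siSlc25a26 PE. Its log2 fold change with PE was 1.49 ± 0.20 in siNeg (adjusted p = 0.000673) and 0.60 ± 0.17 in siSlc25a26 (adjusted p = 0.014), the latter not called without siSlc25a26 3 (0.49) or siSlc25a26 PE 3 (0.43) and with limma on FPKM (0.25). Gmnn, the inhibitor that stops a second licensing, was at 4.24, 5.34 and 4.35 CPM in siNeg, 11.7, 12.98 and 11.5 in siNeg PE, 4.63, 5.09 and 4.79 in siSlc25a26 and 8.07, 9.06 and 10.4 in the libraries labelled siSlc25a26 PE. It rose with PE in siNeg (1.37 ± 0.12, adjusted p = 0.000101) and in siSlc25a26 (0.93 ± 0.13, adjusted p = 0.000306). Pole, of the leading-strand polymerase, was at 21.2, 18.8 and 17.1 CPM in siNeg, 27.8, 26.7 and 28.8 in siNeg PE, 12.53, 13.2 and 12.3 in siSlc25a26 and 14.5, 17.96 and 19.9 in the libraries labelled siSlc25a26 PE. It was lower without PE (-0.62 ± 0.10, adjusted p = 0.00102), short of the fold threshold without siNeg 1 (-0.53) and with limma on FPKM (-0.39), and under PE (-0.68). The helicase partner gene Gins1, at 8.95, 8.94 and 7.82 CPM in siNeg PE and 4.88, 5.05 and 4.33 in the libraries labelled siSlc25a26 PE, was lower under PE (-0.86 ± 0.12, adjusted p = 0.000632). Clspn, of the replication checkpoint, was at 5.07, 4.65 and 4.796 CPM in siNeg, 9.23, 10.9 and 13.7 in siNeg PE, 5.01, 5.03 and 4.27 in siSlc25a26 and 5.97, 6.63 and 7.496 in the libraries labelled siSlc25a26 PE. Dtl, which marks Cdt1 for breakdown, was at 7.25, 5.83 and 6.16 CPM in siNeg, 9.99, 12.8 and 13.2 in siNeg PE, 8.82, 7.94 and 7.19 in siSlc25a26 and 8.35, 10.2 and 10.1 in the libraries labelled siSlc25a26 PE. Clspn (1.21) and Dtl (0.89) rose with PE in siNeg, and Clspn was lower under PE (-0.75). These 2 were called lower for the difference between the PE effects (2 of 30, 6.67%, all genes 3.34%), at -0.73 ± 0.21 (adjusted p = 0.0396) and -0.64 ± 0.19 (adjusted p = 0.0481). Over the alternatives their adjusted p ran from 0.0141 to 0.107 and from 0.0187 to 0.126. Clspn lost the call without siNeg 1 (-0.76), siNeg 2 (-0.70), siNeg 3 (-0.72), siNeg PE 2 (-0.75), siNeg PE 3 (-0.55), siSlc25a26 1 (-0.68), siSlc25a26 2 (-0.68), siSlc25a26 PE 1 (-0.65) or siSlc25a26 PE 2 (-0.72) and with limma on FPKM (-0.50), and Dtl without siNeg 2 (-0.58), siNeg 3 (-0.61), siNeg PE 2 (-0.59), siNeg PE 3 (-0.56), siSlc25a26 1 (-0.56), siSlc25a26 2 (-0.64), siSlc25a26 3 (-0.70), siSlc25a26 PE 1 (-0.55), siSlc25a26 PE 2 (-0.69) or siSlc25a26 PE 3 (-0.68) and with DESeq2 size factors (-0.61), with no filter (-0.64), with limma on FPKM (-0.50) and with a replicate block (-0.64).

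Other mitosis genes numbered 49. With PE 28 rose in siNeg (57.1%, all genes 12.4%) and 7 in siSlc25a26 (14.3%, all genes 10.1%), 6 were lower (12.2%, all genes 7.2%) and 1 higher (2.04%, all genes 8.92%) without PE, and 26 were lower under PE (53.1%, all genes 8.1%), with medians of 0.706, 0.266, -0.164 and -0.637. The condensin gene Smc2 was at 6.198, 9.38 and 11.1 CPM in siNeg, 20.3, 33.3 and 33.3 in siNeg PE, 11.8, 10.1 and 9.87 in siSlc25a26 and 11.9, 15.6 and 19.6 in the libraries labelled siSlc25a26 PE. PE raised it in siNeg (1.69 ± 0.25, adjusted p = 0.00102), and it was lower under PE (-0.89). Sgo2, a guardian of centromere cohesion, was at 1.85, 1.75 and 2.07 CPM in siNeg, 4.93, 6.92 and 6.11 in siNeg PE, 1.43, 1.92 and 1.77 in siSlc25a26 and 2.03, 3.02 and 2.82 in the libraries labelled siSlc25a26 PE, and rose by 1.65 ± 0.17 with PE in siNeg (adjusted p = 0.000196) and by 0.63 in siSlc25a26. Under PE it was lower (-1.20). Depdc1 and the centromere gene Cenpk rose with PE in siSlc25a26, from 1.67, 1.79 and 2.154 to 2.96, 4.01 and 4.87 CPM (1.09 ± 0.22, adjusted p = 0.00266) and from 1.47, 1.46 and 1.25 to 2.38, 2.74 and 2.98 CPM (0.96 ± 0.18, adjusted p = 0.00204). Depdc1 lost the call with limma on FPKM (0.47) and Cenpk with limma on FPKM (0.49). Plk4, the kinase of centriole duplication, was higher in siSlc25a26 without PE, at 3.08, 3.36 and 4.02 CPM in siNeg and 5.76, 6.22 and 5.63 in siSlc25a26 (0.73 ± 0.14, adjusted p = 0.00255). Kif14 and Cit, partners in cytokinesis, were lower there, from 1.89, 2.48 and 2.32 to 1.43, 1.26 and 1.15 CPM (-0.83 ± 0.19, adjusted p = 0.0083) and from 17.8, 14.5 and 17.2 to 10.7, 10.2 and 10.2 CPM (-0.70 ± 0.10, adjusted p = 0.000512). Plk4 lost the call with limma on FPKM (0.45), Kif14 with limma on FPKM (-0.16) and Cit with limma on FPKM (-0.41). Pbk, a mitotic kinase, was at 6.45, 7.86 and 6.38 CPM in siNeg, 18.9, 18.2 and 18.2 in siNeg PE, 4.22, 4.697 and 4.83 in siSlc25a26 and 4.798, 5.403 and 6.14 in the libraries labelled siSlc25a26 PE. The siNeg PE libraries stood above all others, the siNeg libraries next. Pbk rose with PE in siNeg (1.41) and was lower without PE (-0.61). Under PE Pbk was lower (-1.77 ± 0.11, adjusted p = 5.86e-06), as was Kif14 (-1.65 ± 0.22, adjusted p = 0.000501; not called with limma on FPKM (-0.48)). The difference between the PE effects was called lower for 8 of 49 (16.3%, all genes 3.34%). Of these, Pbk was at -1.17 ± 0.16 (adjusted p = 0.000998) and called under all 18 alternatives, and Smc2 at -1.13 ± 0.33 (adjusted p = 0.0461) with adjusted p from 0.00813 to 0.109 over its alternatives, not called without siNeg 1 (-0.93), siNeg 2 (-1.17), siNeg PE 2 (-1.02), siNeg PE 3 (-1.01), siSlc25a26 1 (-1.04), siSlc25a26 2 (-1.16), siSlc25a26 3 (-1.17), siSlc25a26 PE 1 (-0.97) or siSlc25a26 PE 2 (-1.13).

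The regulators upstream, 42 D-type cyclins, kinases, kinase inhibitors, pocket proteins and related genes, moved both ways. With PE in siNeg 8 rose (19.0%, all genes 12.4%) and 1 fell (2.38%, all genes 8.24%), and with PE in siSlc25a26 10 rose (23.8%, all genes 10.1%) and 1 fell (2.38%, all genes 10.4%). Without PE 3 were higher (7.14%, all genes 8.92%) and 2 lower (4.76%, all genes 7.2%), and under PE 3 were higher (7.14%, all genes 7.71%) and 4 lower (9.52%, all genes 8.1%). Their medians were 0.201, 0.072, -0.005 and -0.038. Cdkn1c, an inhibitor of cyclin-dependent kinases, was at 37.7, 42.6 and 43.9 CPM in siNeg, 26.2, 24.03 and 28.9 in siNeg PE, 68.2, 71.7 and 80.8 in siSlc25a26 and 31.1, 24.4 and 19.98 in the libraries labelled siSlc25a26 PE. It fell with PE in siNeg (-0.66 ± 0.09, adjusted p = 0.000811) and in siSlc25a26 (-1.54 ± 0.14, adjusted p = 2.6e-05), was higher in siSlc25a26 without PE (0.80 ± 0.08, adjusted p = 8.85e-05), and had a called difference between the PE effects (-0.90 ± 0.19, adjusted p = 0.00879). Cdkn2b, an inhibitor of the kinases of D-type cyclins, was at 7.32, 6.56 and 7.49 CPM in siNeg, 21.2, 23.4 and 18.1 in siNeg PE, 10.8, 11.3 and 8.13 in siSlc25a26 and 26.9, 30.3 and 29.9 in the libraries labelled siSlc25a26 PE. Both PE groups were above both untreated groups, by 1.54 ± 0.12 in siNeg (adjusted p = 4.41e-05) and 1.53 ± 0.12 in siSlc25a26 (adjusted p = 1.15e-05). Ccnd1, the cyclin D of growth signals, was at 63.8, 58.5 and 54.5 CPM in siNeg, 80.6, 90.1 and 66.5 in siNeg PE, 75.5, 74.7 and 71.3 in siSlc25a26 and 124, 134 and 138 in the libraries labelled siSlc25a26 PE. Unlike the cyclin E genes it was highest in the libraries labelled siSlc25a26 PE, and higher there than in siNeg PE (0.73 ± 0.11, adjusted p = 0.000795), having risen with PE in siSlc25a26 (0.85). Ccnd2 was lower in siSlc25a26 without PE, at 244, 263 and 279.5 CPM in siNeg and 165, 174 and 187 in siSlc25a26 (-0.61 ± 0.07, adjusted p = 0.000134), a call lost without siNeg 3 (-0.58) or siSlc25a26 1 (-0.56) and with limma on FPKM (-0.41) and with all 12 libraries fitted together (-0.58).

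Gadd45g, a growth arrest gene induced by stress, was at 20.6, 19.6 and 19.99 CPM in siNeg, 53.6, 57.1 and 27.7 in siNeg PE, 26.9, 27.8 and 28.3 in siSlc25a26 and 119, 115 and 116 in the libraries labelled siSlc25a26 PE. The libraries labelled siSlc25a26 PE were the highest, and siNeg PE 3 was below the other siNeg PE libraries. Gadd45g rose with PE in siNeg (1.19 ± 0.23, adjusted p = 0.00366) and in siSlc25a26 (2.09 ± 0.05, adjusted p = 2.57e-08), and was higher under PE (1.33 ± 0.22, adjusted p = 0.00158). Btg2, an antiproliferative gene, was at 51.8, 53.1 and 56.6 CPM in siNeg, 129.8, 133 and 99.9 in siNeg PE, 80.7, 89.6 and 89.2 in siSlc25a26 and 245, 234 and 219.7 in the libraries labelled siSlc25a26 PE. Its groups were separate, with siNeg lowest and the libraries labelled siSlc25a26 PE highest. It rose with PE in siNeg (1.15 ± 0.10, adjusted p = 9.06e-05) and in siSlc25a26 (1.44 ± 0.06, adjusted p = 3.5e-07) and was higher in the siSlc25a26 libraries without PE (0.66 ± 0.06, adjusted p = 4.4e-05) and under PE (0.94 ± 0.11, adjusted p = 0.000213). Chek1, the kinase of the replication checkpoint, was at 4.17, 4.5 and 3.76 CPM in siNeg, 8.95, 10.7 and 10.6 in siNeg PE, 3.64, 4.27 and 3.68 in siSlc25a26 and 5.97, 6.12 and 7.999 in the libraries labelled siSlc25a26 PE. PE raised it in siNeg (1.27 ± 0.13, adjusted p = 0.000169) and in siSlc25a26 (0.80 ± 0.15, adjusted p = 0.00227), and it was lower under PE (-0.60 ± 0.14, adjusted p = 0.00958), a call lost without siNeg PE 2 (-0.56), siNeg PE 3 (-0.58), siSlc25a26 PE 1 (-0.52) or siSlc25a26 PE 2 (-0.53) and with limma on FPKM (-0.52). Rbl1, a pocket protein, rose with PE in siSlc25a26 from 2.04, 2.41 and 1.598 to 4.49, 4.89 and 4.41 CPM (1.19 ± 0.17, adjusted p = 0.000476; not called with limma on FPKM (0.52)). Without PE the ubiquitin ligase gene Skp2 was higher in siSlc25a26, at 4.64, 4.004 and 4.796 CPM in siNeg and 7.22, 7.01 and 7.02 in siSlc25a26 (0.63 ± 0.11, adjusted p = 0.00204), short of the fold threshold without siNeg 2 (0.55) and with limma on FPKM (0.46). The phosphatase gene Cdkn3 was lower there, at 22.5, 23.5 and 21.5 and 13.7, 15.98 and 13.6 CPM (-0.67 ± 0.09, adjusted p = 0.000434; short of the fold threshold with limma on FPKM (-0.58)). Under PE the repressor gene E2f7, the inhibitor gene Cdkn2c and the E2F partner gene Tfdp2 were lower in the libraries labelled siSlc25a26 PE. E2f7 was at 8.44, 9.02 and 7.903 CPM in siNeg PE and 5.03, 4.41 and 4.29 in those libraries (-0.89 ± 0.12, adjusted p = 0.000477), Cdkn2c at 14.4, 14.1 and 11.7 and 7.25, 9.57 and 8.19 (-0.69 ± 0.13, adjusted p = 0.00357) and Tfdp2 at 16.5, 18.7 and 21.9 and 11.2, 12.4 and 13.2 (-0.64 ± 0.12, adjusted p = 0.00262). Tfdp2 was short of the fold threshold without siNeg PE 3 (-0.55) or siSlc25a26 PE 1 (-0.58) and with limma on FPKM (-0.44), and E2f7 with limma on FPKM (-0.51). E2f7 was, with Cdkn1c, called lower for the difference between the PE effects (2 of 42 regulators, 4.76%, all genes 3.34%), at -0.62 ± 0.16 (adjusted p = 0.03), with adjusted p from 0.0148 to 0.0752 over its alternatives, a call lost without siNeg 2 (-0.55), siNeg 3 (-0.59), siNeg PE 2 (-0.57), siSlc25a26 1 (-0.63), siSlc25a26 2 (-0.60), siSlc25a26 3 (-0.60), siSlc25a26 PE 2 (-0.60) or siSlc25a26 PE 3 (-0.58) and with limma on FPKM (-0.39).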

How the data were processed

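The authors deposited expected counts (estimated reads per gene) and, in another table, FPKM values for 18469 genes in 12 libraries. The submitters' processing notes name HISAT, Bowtie2 and Rnor_6.0; the counting program, annotation and strandedness are not given in the sources used here. The design assumed plain counts; the expected counts were rounded to whole numbers in their place. Groups and times come from the labels, which differ from the paper in the knockdown target and in the times.

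In R 4.3.3, edgeR 4.0.16 (TMM, filterByExpr, quasi-likelihood test, Benjamini-Hochberg adjustment over all genes tested) fitted the 6 libraries of each comparison, and all 12 for the difference between the PE effects. A call needed an adjusted p below 0.05 together with a fold change of more than 1.5. Alternatives were DESeq2 1.42.0, its size factors in edgeR, no filter, a filter of 10 counts in every library, limma 3.58.1 on log2(FPKM + 1), a replicate block, a fit of all 12 libraries, no fold threshold, and every fit with 1 library removed. The code was first tested on simulated data.

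Full values cover 8 members fixed beforehand (Mki67, Top2a, Ccnb1, Cdk1, Mcm2, Pcna, E2f1, Ccne1) and, in each comparison, the called genes with the largest change each way: up to 4 G1/S members, 4 G2/M members and 4 regulators, and up to 2 other replication and 2 other mitosis genes. Their groups did not overlap (not asked of the difference) and the higher group had at least 10 counts in every library. The members and lists were chosen with earlier results of these data known.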

Additional observations from a re-analysis of the deposited data

Results flagged for a closer look

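The PE effect differed between the siRNAs, by the test of the difference itself, in 8 of 49 members (16.3%), where 3.34% of all 14097 genes were called lower. The PE effect in siSlc25a26 minus that in siNeg (log2) was -0.93 for Ccne2, -1.06 for E2f2, -0.72 for Rrm2, -1.15 for Top2a, -0.78 for Ndc80, -0.72 for Ect2, -0.64 for Nusap1 and -0.62 for Ttk. Leaving out 1 library gave 3 to 13 such members. The calls of Rrm2 and Top2a held under all 18 alternatives, that of E2f2 was lost under 1 of 18, Nusap1 under 2 of 18, Ccne2 under 8 of 18, Ndc80 under 8 of 18 and Ect2 under 9 of 18, and for Ttk the alternatives were not examined gene by gene.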

How the results depend on the processing

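Most member counts stayed within 1.5 times their value under the alternatives, and the cause was not tested for those that did not. With no fold threshold, 39 members were higher with PE in siNeg, 16 higher and 1 lower with PE in siSlc25a26, 1 higher and 23 lower in siSlc25a26 without PE, and 16 lower for the difference between the PE effects. DESeq2 called 7 members higher with PE in siSlc25a26. With limma on FPKM that count was 1, and 1 member was lower in siSlc25a26 without PE. Leaving out 1 library gave 21 to 27 members higher and 0 to 0 lower with PE in siNeg, 3 to 12 higher and 0 to 1 lower with PE in siSlc25a26, 0 to 0 higher and 3 to 6 lower in siSlc25a26 without PE, 0 to 0 higher and 26 to 31 lower under PE, and 0 to 0 higher and 3 to 13 lower for the difference. With a paired replicate block the counts were 24 higher and 0 lower, 4 and 0, 0 and 4, 0 and 31, and 0 and 11 in that order; libraries of the same number did not correlate best throughout, with same-number correlations of 0.145, 0.009 and 0.217 for PE in siNeg. Sign changed for Ccnb1 (-0.0427) and Mcm2 (-0.0693) with PE in siSlc25a26 by limma on FPKM, and for Mki67 in siSlc25a26 without PE when siNeg replicate 3 was left out (-0.2512 to 0.0867 over the libraries left out). Over 107 gene results and 1491 alternatives, 1369 kept direction and call, 111 lost the call, 8 gained it and 3 changed sign, and 47 of 79 called gene results were called throughout. Of all genes limma on FPKM called fewer, except lower with PE in siSlc25a26 and lower for the difference, where it called more: 857 higher and 733 lower with PE in siNeg (1708 and 1130 by edgeR), 564 and 1497 in siSlc25a26 (1389 and 1436), 832 and 452 without PE (1233 and 996), 623 and 756 under PE (1054 and 1108), and 164 and 538 for the difference (305 and 471). It moved the median of all genes to -0.125 for PE in siSlc25a26 and -0.109 for the difference, where the members' medians were 0.029 and -0.405. At 24770972 counts or more per library the lowest member count was 60 (E2f2), where counting error limits precision most; the SE did not follow counts alone, at 0.29 for Mki67 and 0.19 for E2f2 under PE.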
